A study of Mus musculus with 30 samples.

Results

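The livers of 10 mice given sulindac were compared with those of 4 vehicle-treated mice that had developed hepatocellular carcinoma (HCC), which are 14 of the 30 mice of the study. The 14 arrays were chosen by their titles alone, and no measured value entered that choice. All 14 mice ate CD-HFD, in which a high-fat food lacks choline, a diet that produces steatohepatitis, fibrosis and HCC. The vehicle mice of the comparison had HCC and fibrosis, and sulindac was given as prevention during the diet. The remaining arrays came from 5 vehicle mice on CD-HFD without HCC, 6 mice on CD-HFD given aspirin with clopidogrel, and 5 healthy mice on chow, and their values are given only beside those of the 14. Each array measured RNA from non-tumour liver of 1 mouse. Strain, sex, age, dose, batch and time of collection are not in the labels.

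Sulindac is a non-steroidal anti-inflammatory prodrug. Enzymes of the liver and of gut bacteria reduce it to a sulfide, which inhibits the cyclooxygenases encoded by Ptgs1 and Ptgs2, and the liver oxidises it to a sulfone, which does not. In liver, bone morphogenetic proteins (BMPs) released by sinusoidal endothelium act on hepatocytes through SMAD proteins and raise transcription of the Id genes, Smad7 and Hamp. Hamp encodes hepcidin, the hormone that limits iron release into blood.

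Values are log2 of the deposited intensity, and a change is the sulindac mean minus the mean of vehicle with HCC. Median intensity lay between 24.1 and 24.6 in the 14 arrays, and pairs of arrays correlated between 0.985 and 0.996 across probe sets, with 0 identical pairs. The 6 hepatocyte markers were bright in all arrays, with a median change of 0.05. Skeletal muscle genes stood apart in Sulin_17, where Acta1 was 10.30 and Mylpf 8.36, against at most 5.10 and 4.87 in the other 13. Dbp, a clock output gene, was 10.00 and 10.20 in Veh_high_1831 and Veh_high_2088 and 4.37 and 4.60 in the other vehicle mice with HCC. Xist, the transcript of the inactive X chromosome, lay between 4.61 and 5.03 in the 14 arrays, and between 10.95 and 11.21 in 4 of the 6 aspirin with clopidogrel arrays. Animal numbers of the groups did not overlap (Sulin_15 to Sulin_29, and Veh_high_798 to Veh_high_2088), and the labels name no cohort, so drug and any difference of cohort cannot be told apart. The vehicle mice of the comparison were selected by HCC and fibrosis, while the labels give no tumour status for the sulindac mice. Drug and this selection by outcome cannot be told apart either.

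Sulindac livers differed from vehicle livers with HCC in 15 of 17097 genes (0.0877%) at an adjusted p under 0.05 (limma, Benjamini-Hochberg over all genes). Higher genes numbered 8 (0.0468%), namely Wdfy1, Nnt, Plekhj1, Prdx4, Sec14l4, Hamp, Shoc2 and Kitl. The 7 lower genes (0.0409%) were Slc25a37, Entpd4, Pisd-ps3, Rhbg, Mmd2, Ide and Fam25c. In each of these 15 the sulindac and vehicle values did not overlap, as was true of 88 genes in all (0.515%), 0.345% higher and 0.170% lower. An unadjusted p under 0.05 was reached by 1404 genes (8.21%), 941 higher (5.50%) and 463 lower (2.71%). The median change over all genes was 0.01, with a higher mean in 55.6% and a lower mean in 44.4%. With quantile normalization repeated over the 14 arrays the shares at an unadjusted p under 0.05 were 3.49% higher and 4.52% lower. Without Veh_high_1831 and Veh_high_2088, 8 genes passed, 5 higher and 3 lower. Without Sulin_17 and Sulin_15, whose Dbp of 5.29 was the lowest under sulindac, 5 higher and 9 lower genes passed. Of the 15 genes, 6 passed after any 1 of the 14 mice was left out, namely Wdfy1, Nnt, Slc25a37, Entpd4, Plekhj1 and Pisd-ps3. With all 30 arrays in the fit, Wdfy1, Nnt, Slc25a37, Entpd4, Plekhj1 and Shoc2 passed and the other 9 did not.

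**Figure D1:**
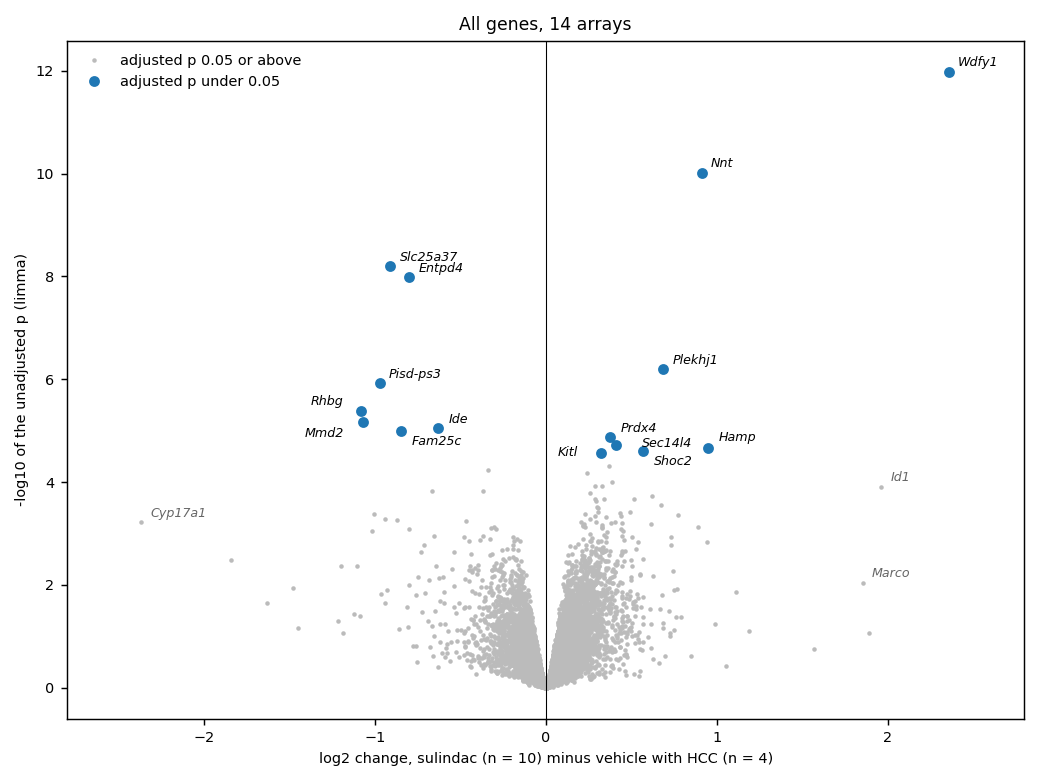
Each point is 1 of 17097 genes, with the log2 change of sulindac (10 mice) minus vehicle with HCC (4 mice) on the horizontal axis and -log10 of the unadjusted limma p on the vertical axis. The 15 genes with an adjusted p under 0.05 are blue and named, with Wdfy1 at 2.36 and Nnt at 0.91, and Id1, Marco and Cyp17a1, which did not pass, are named in grey.

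Wdfy1 had the highest change of the genes that passed. It encodes an adaptor that binds endosomal membranes and takes part in Toll-like receptor signalling. Its values were 5.30, 5.27, 5.70 and 5.07 in the 4 vehicle mice with HCC, and under sulindac the lowest was 7.50, the median 7.65 and the highest 8.04. Every sulindac mouse thus lay above every vehicle mouse with HCC by more than the spread within either group. Wdfy1 rose by 2.36 (SE 0.11, 5.13-fold, adjusted p = 1.78e-08), and all 4 of its probe sets were higher.

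Nnt encodes the nicotinamide nucleotide transhydrogenase of the inner mitochondrial membrane, which makes NADPH. The vehicle values of Nnt were 9.78, 9.68, 9.81 and 9.80, and the sulindac values ran from 10.55 through a median of 10.65 to 10.87. The groups were separate, and Nnt rose by 0.91 (SE 0.057, adjusted p = 8.19e-07), with both probe sets higher.

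Entpd4 and Slc25a37 are neighbours in the mouse genome, with 1 protein-coding gene between them. Slc25a37 encodes mitoferrin-1, which brings iron into mitochondria for haem synthesis, and Entpd4 encodes a nucleoside diphosphatase of the Golgi and lysosomes. Slc25a37 was 9.09, 9.27, 9.49 and 9.36 in vehicle with HCC and between 8.20 and 8.61 under sulindac, with a median of 8.40. It fell by 0.91 (SE 0.077, adjusted p = 3.62e-05), and 2 of its 3 probe sets were lower. With the mean of all 3 probe sets the change of Slc25a37 was -0.39 and did not pass (adjusted p = 0.101). Entpd4 was 6.89, 6.88, 7.27 and 6.94 in vehicle with HCC and between 6.01 and 6.32 under sulindac, with a median of 6.19. It fell by 0.80 (SE 0.07, adjusted p = 4.49e-05). Only 1 of the 2 probe sets of Entpd4 was lower, namely the brighter one, which was used.

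Ide encodes the insulin-degrading enzyme. It was 10.22, 10.48, 10.37 and 9.91 in vehicle with HCC, with 9.27, 9.65 and 9.74 as the lowest, median and highest under sulindac. Ide fell by 0.63 (SE 0.095, adjusted p = 0.017), and all 4 probe sets were lower. Without Veh_high_1770 or Veh_high_1831 its adjusted p no longer passed, reaching 0.102, and with all 30 arrays in the fit it was 0.542.

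Wdfy1, Nnt, Entpd4 and Ide are 4 of the 7 members (0.0877% of all genes passed) of a list of genes reported to differ between substrains of C57BL/6 mice, among which Nnt is known for a deletion in the J substrain. The other 3 did not pass, with changes of 0.03 for Cyfip2, 0.03 for Crb1 and 0.41 for Nlrp12. This list was written with earlier results of these data known. The labels name no strain or substrain, and drug and substrain cannot be told apart here.

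The mice given aspirin with clopidogrel were more spread in these genes than the sulindac mice. Wdfy1 was 5.04, 6.32, 6.45, 7.62, 7.63 and 7.85 in those 6 mice, so 1 lay below the 4 vehicle mice with HCC, 3 lay within the sulindac range and the other two between the groups. Their Nnt values were 9.70 in AspClo_60 and 9.92 in AspClo_62, and ran from 10.65 to 10.92 in AspClo_58, AspClo_61, AspClo_63 and AspClo_64. The mean over the female-biased liver genes divided these mice in the same way. It was 6.247 in AspClo_60 and 6.364 in AspClo_62, and between 8.991 and 9.468 in the others. The labels give no sex, and its part in these values was not tested. Their Slc25a37 values ran from 7.98 to 8.94. In vehicle mice without HCC Wdfy1 lay between 4.80 and 5.28 and Slc25a37 between 9.09 and 9.47, and in healthy mice between 4.87 and 5.33 and between 9.06 and 9.74. With all 30 arrays in 1 fit, where 0.983% of genes passed in sulindac minus vehicle without HCC, that change was 2.61 for Wdfy1 (adjusted p = 4.6e-06), 1.02 for Nnt (adjusted p = 0.000806) and -0.93 for Slc25a37 (adjusted p = 0.000244). In the same fit, aspirin with clopidogrel minus vehicle with HCC, in which 0.918% of genes passed, was 1.48 for Wdfy1 (adjusted p = 0.0284) and -0.86 for Slc25a37 (adjusted p = 0.00954). Sulindac minus aspirin with clopidogrel, in which 0.877% passed, was 0.88 for Wdfy1 (adjusted p = 0.0985) and -0.05 for Slc25a37 (adjusted p = 0.938). All of these comparisons share arrays with that against vehicle with HCC. The aspirin with clopidogrel group mixes arrays of high and low Xist, and the fit has no term for sex. In its comparisons drug and any difference of sex cannot be told apart.

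Plekhj1 encodes a small protein with a pleckstrin homology domain. Its values were 4.59, 4.46, 4.68 and 4.68 in vehicle with HCC, and they ran from 5.10 to 5.61 under sulindac with a median of 5.27. Plekhj1 rose by 0.69 (SE 0.083, adjusted p = 0.00216). Pisd-ps3 is a pseudogene related to the phosphatidylserine decarboxylase gene. It fell by 0.97 (SE 0.123, adjusted p = 0.00338), from 6.42, 6.30, 6.45 and 6.71 to between 5.02 and 5.84. Its probes may read near-identical copies, which was not tested, and without Veh_high_1831 and Veh_high_2088 its adjusted p was 0.0974. With all 30 arrays in the fit it was 0.44.

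**Figure D2:**
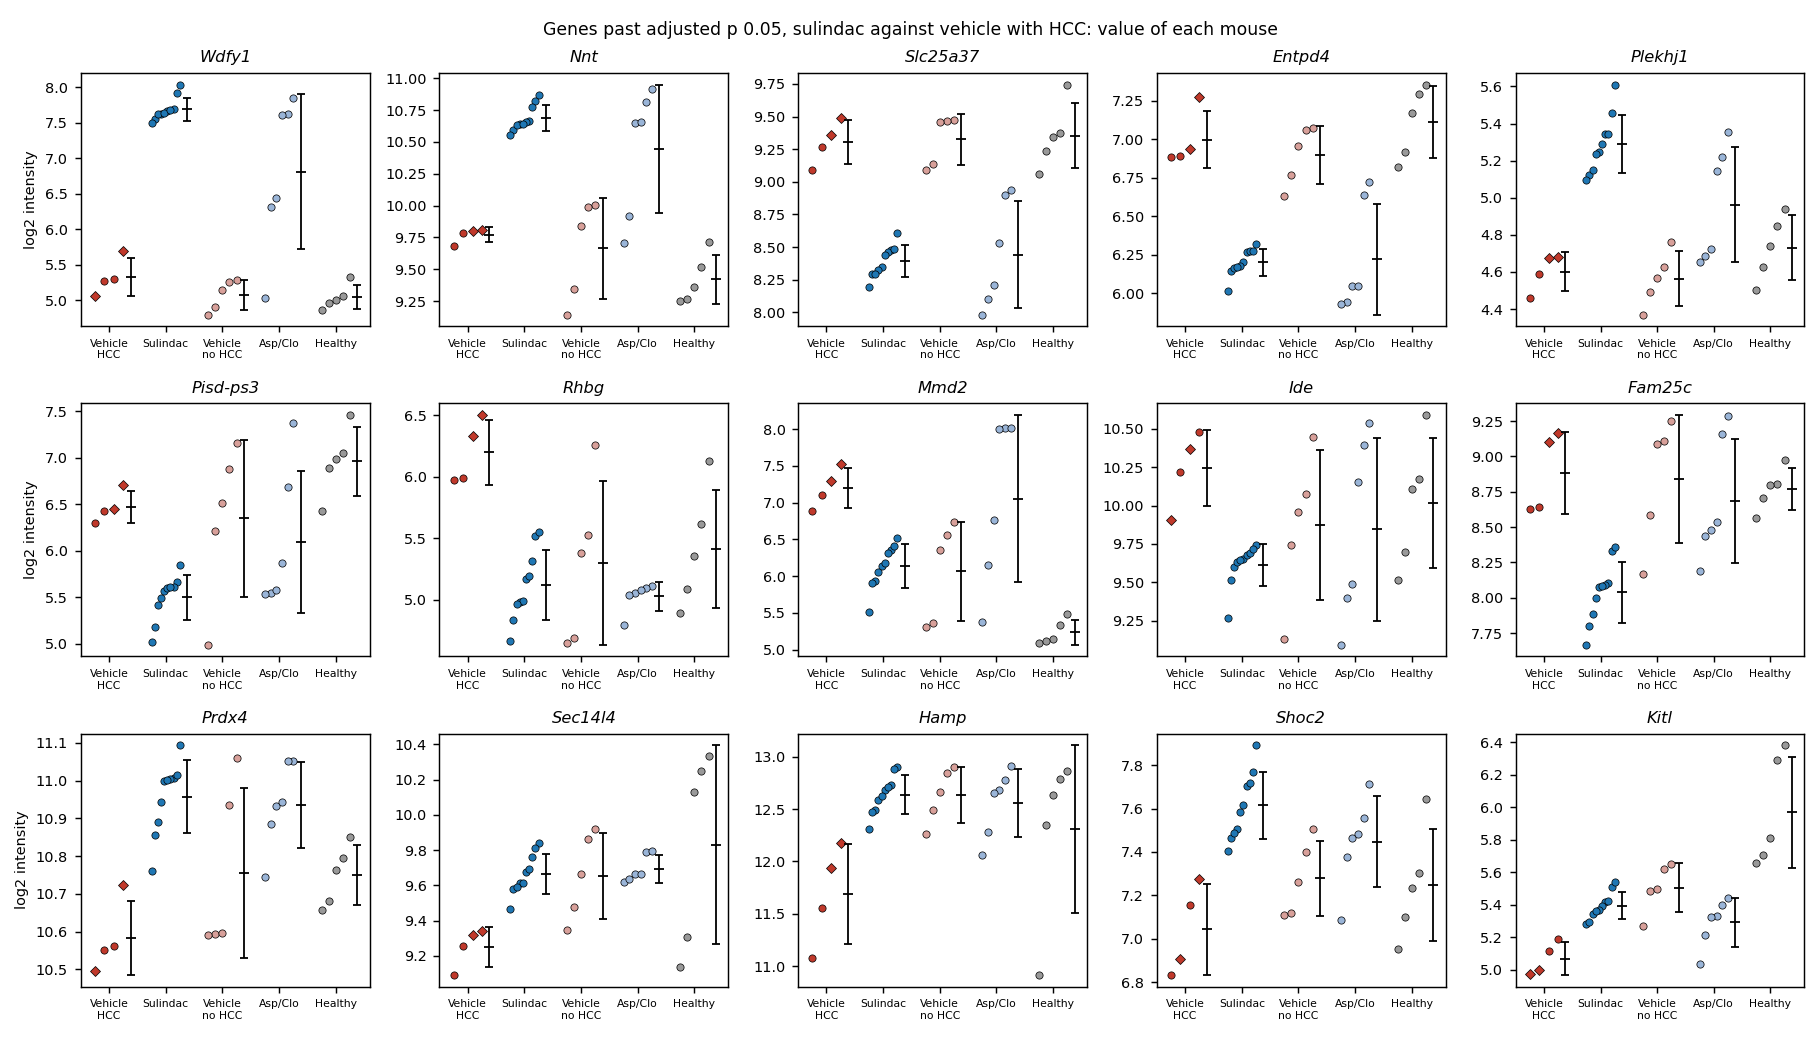
Each panel shows log2 intensity of 1 gene that passed the test, with 1 point per mouse in 5 groups, sorted by value within a group, and a bar for the mean ± SD. Diamonds mark Veh_high_1831 and Veh_high_2088. In all 15 panels the 10 sulindac mice lie wholly above or wholly below the 4 vehicle mice with HCC, and for Wdfy1 the 6 aspirin with clopidogrel mice range from 5.04 to 7.85.

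Hamp, the hepcidin gene, was higher in sulindac livers than in vehicle livers with HCC, while its sulindac values overlapped those of vehicle livers without HCC. Several genes of the BMP pathway that controls Hamp were also higher than in vehicle with HCC, without passing the test. Of the 29 genes on the list of BMP and SMAD targets with iron regulators, 27 were measured. Only Hamp passed, 9 were higher (5.50% of all genes) and 3 lower (2.71%) at an unadjusted p under 0.05, and the list median was 0.16 against 0.01 over all genes. The lower count was 1 without Veh_high_1770. Without both Veh_high_1831 and Veh_high_2088 the counts were 7 and 1, and the median was 0.06.

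The promoters of Hamp and Id2, which encodes an inhibitor of DNA binding, are shown because both hold GGCGCC, the letters of a BMP-responsive element to which SMAD proteins bind. They are RefSeq sequences of build GRCm38.p6, each the 250 bases before the first listed start of the gene, with the match in capitals. The window of Hamp is chr7:30944030-30944279 on the minus strand, with the match starting 109 bases before the gene start. That of Id2 is chr12:25096093-25096342 on the minus strand, with the match starting 231 bases before the start.
Hamp: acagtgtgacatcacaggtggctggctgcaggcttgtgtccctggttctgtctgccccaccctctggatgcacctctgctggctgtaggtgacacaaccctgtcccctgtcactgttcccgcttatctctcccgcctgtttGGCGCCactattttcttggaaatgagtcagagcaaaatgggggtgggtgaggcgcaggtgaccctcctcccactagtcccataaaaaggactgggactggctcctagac
Id2: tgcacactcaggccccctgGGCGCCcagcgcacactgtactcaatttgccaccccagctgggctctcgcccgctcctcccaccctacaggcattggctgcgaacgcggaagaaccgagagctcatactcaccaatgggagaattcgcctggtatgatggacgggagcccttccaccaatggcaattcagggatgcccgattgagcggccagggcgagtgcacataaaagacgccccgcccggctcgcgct
The motif reads the same on both strands, and it was chosen after the values were seen. Of the 18 promoters of the list found in the table, 7 held it (38.9%), against 2577 of all 27025 promoters (9.54%). Besides Hamp and Id2, the promoters with a match were those of Bmpr1a, Bmpr2, Id4, Smad9 and Tfrc. Hamp and Id2 had a higher mean under sulindac, while Tfrc had the lowest change of the list, at -1.20. Changes of Bmpr1a, Bmpr2, Id4 and Smad9 are not given here. Whether a match goes with a higher value was not tested. The window of Id3 held no match. A match is a description of the letters and shows no binding.

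Among the ligands, Bmp2, made in liver mainly by endothelial cells, was 5.65, 5.80, 5.77 and 5.90 in vehicle with HCC and between 5.82 and 6.35 under sulindac, with 9 of 10 sulindac mice above all vehicle mice. The change of Bmp2 was 0.40 (95% interval 0.21 to 0.60, adjusted p = 0.204). Bmp5, another ligand of the family, changed by 0.40 (95% interval 0.09 to 0.72, adjusted p = 0.462). Neither passed the test.

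Id1 is a direct target of BMP signalling in hepatocytes and encodes an inhibitor of DNA-binding transcription factors. Its values were 6.18, 6.23, 5.96 and 6.79 in vehicle with HCC, and under sulindac the lowest was 7.01, the median 8.35 and the highest 9.36. All 10 sulindac values of Id1 lay above all vehicle values, with a change of 1.96 (SE 0.381, 3.90-fold), but the adjusted p was 0.0962. It was 0.0373 without Sulin_18 and 0.0406 without Sulin_20, the pair with the lowest Id1 under sulindac.

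Id3 had a change of 0.77 (adjusted p = 0.188), with 8 of 10 sulindac mice above all vehicle mice. Id2 had a change of 0.45 (adjusted p = 0.225), with 9 of 10 above. Smad7, an inhibitor that the pathway itself induces, had a change of 0.45 (adjusted p = 0.257), and Bambi, a decoy receptor, one of 0.23 (adjusted p = 0.346). The values of Bambi did not overlap, with all 10 sulindac mice above all vehicle mice. None of these 4 passed.

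Hamp itself was 11.56, 11.08, 12.17 and 11.94 in vehicle with HCC and between 12.31 and 12.90 under sulindac, with a median of 12.65. The groups did not overlap, and the vehicle mice were more spread (SD 0.48) than the sulindac mice (SD 0.18). Hamp rose by 0.95 (SE 0.155, 1.93-fold, adjusted p = 0.0285), with both probe sets higher. It did not pass with all 30 arrays in the fit (adjusted p = 0.232), nor with a trended and robust prior in limma (0.0784). The call was lost when any 1 of 9 mice was left out, namely Veh_high_798, Veh_high_1770, Veh_high_2088, Sulin_16, Sulin_18, Sulin_20, Sulin_23, Sulin_21 or Sulin_26, with an adjusted p of at most 0.097. Without both Veh_high_1831 and Veh_high_2088 the change of Hamp was 1.32 (adjusted p = 0.00222). Whether its probes also read the similar gene Hamp2 was not tested.

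Of the genes that carry iron, Slc40a1 encodes ferroportin, the exporter that hepcidin removes from the cell surface. It changed by 0.30 (95% interval 0.11 to 0.48, adjusted p = 0.353). Tfrc, which encodes the transferrin receptor for iron uptake, was 10.09, 9.34, 8.66 and 8.79 in vehicle with HCC and between 6.90 and 8.90 under sulindac. Its change was -1.20 (95% interval -1.96 to -0.44, adjusted p = 0.353), with 9 of 10 sulindac mice below all vehicle mice.

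In vehicle mice without HCC, Id1 lay between 7.86 and 9.69 and Hamp between 12.26 and 12.90, and both overlapped the sulindac range. In the fit of 30 arrays, vehicle with HCC minus vehicle without HCC, in which 0.0877% of genes passed, was -2.66 for Id1 (adjusted p = 0.019), -1.27 for Id3 (adjusted p = 0.0195) and -0.94 for Hamp (adjusted p = 0.227). Sulindac minus vehicle without HCC was -0.69 for Id1 (adjusted p = 0.498) and 0.00 for Hamp (adjusted p = 0.999). Under aspirin with clopidogrel Id1 lay between 6.25 and 8.38, overlapping both groups.

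The haemoglobin genes read red blood cells held in the liver. Hba-a1 was 12.41, 11.02, 11.14 and 12.35 in vehicle with HCC and between 12.42 and 12.92 under sulindac, so a pair of vehicle mice lay just below the sulindac range and the other pair far below it. The change was 0.89 for Hba-a1 (adjusted p = 0.211) and 0.94 for Hbb-b2 (adjusted p = 0.263), and neither passed. Hba-a1 lay between 12.57 and 12.98 under aspirin with clopidogrel, between 10.77 and 12.03 in vehicle without HCC and between 10.28 and 11.67 in healthy mice. Of the 17 measured erythroid genes, Slc25a37 alone passed, in the lower direction, and 14 of 17 had a higher mean under sulindac (55.6% of all genes).

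**Figure D3:**
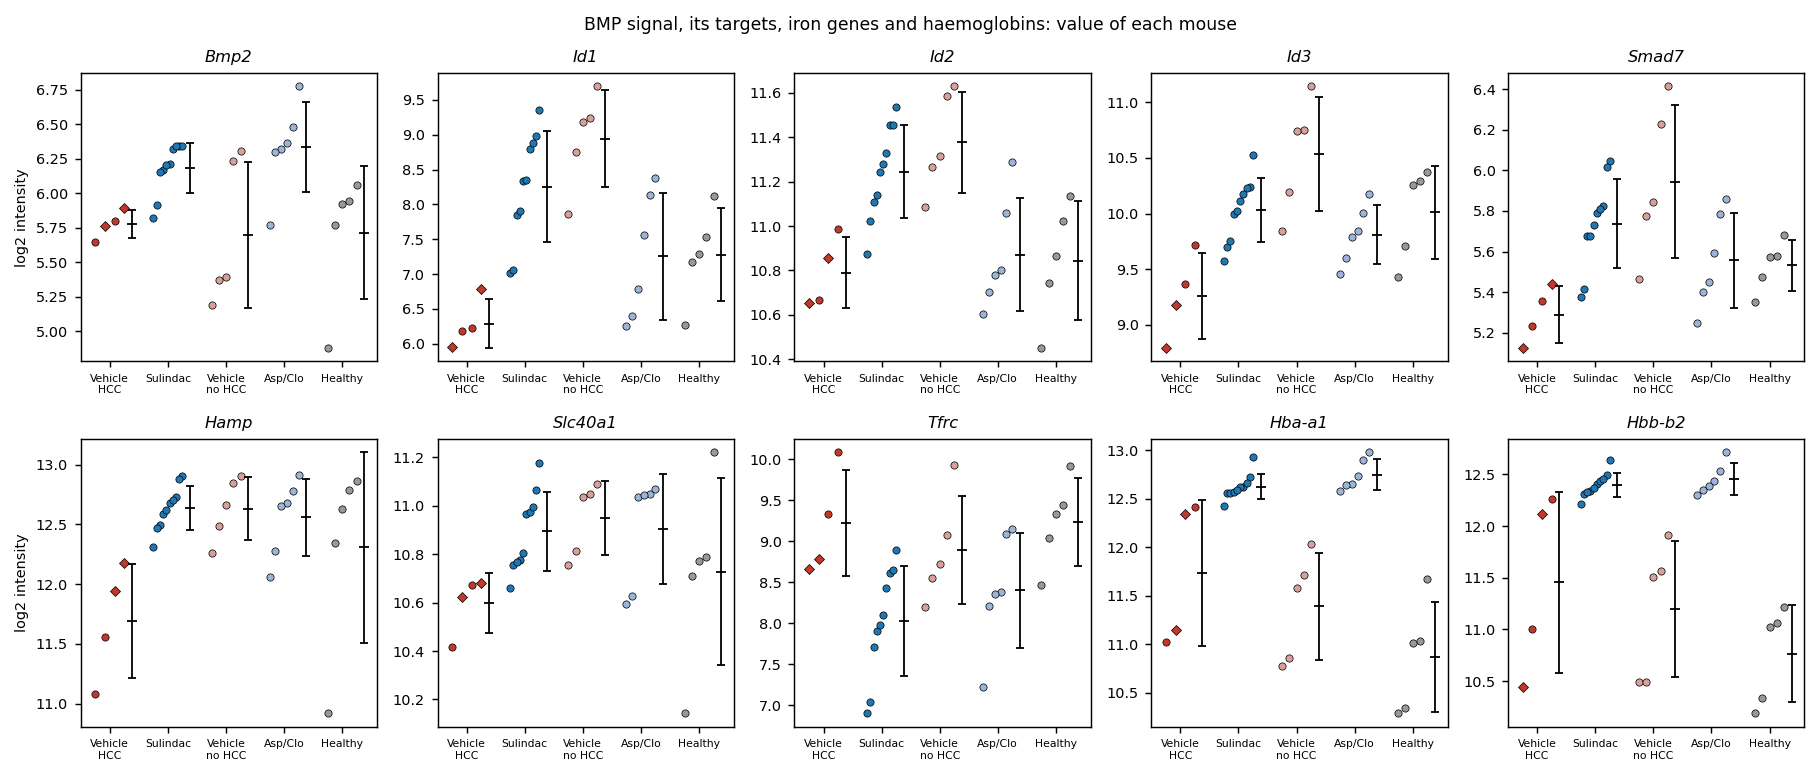
Each panel shows log2 intensity of 1 gene of BMP signalling, iron handling or haemoglobin, with 1 point per mouse in 5 groups and a bar for the mean ± SD, and diamonds for Veh_high_1831 and Veh_high_2088. Id1 lies between 5.96 and 6.79 in vehicle with HCC, between 7.01 and 9.36 under sulindac and between 7.86 and 9.69 in vehicle without HCC.

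Rhbg, Mmd2 and Fam25c were the remaining genes that fell. Rhbg encodes an ammonium transporter of hepatocytes around the central vein. It was 5.97, 5.99, 6.33 and 6.50 in vehicle with HCC and between 4.66 and 5.55 under sulindac, a fall by 1.08 (SE 0.152, 2.11-fold, adjusted p = 0.00996). Of the 23 measured genes of the pericentral list only Rhbg passed, and the median change was 0.05. Mmd2, which encodes a membrane protein of the progestin and adiponectin receptor family, fell by 1.07 (SE 0.158, adjusted p = 0.0146), from 6.89, 7.10, 7.29 and 7.52 to between 5.51 and 6.52. Fam25c, which encodes a small protein of unknown function, fell by 0.85 (SE 0.129, adjusted p = 0.017), from 8.63, 8.64, 9.17 and 9.10 to between 7.67 and 8.36. In Rhbg, Mmd2 and Fam25c the vehicle mice Veh_high_1831 and Veh_high_2088 had the highest values. Each of these 3 genes lost its call when 1 of that pair was left out, Mmd2 also without Veh_high_1770, with adjusted p of at most 0.0581 for Rhbg, 0.0748 for Mmd2 and 0.0865 for Fam25c. Without both mice the changes were -0.86 for Rhbg, -0.87 for Mmd2 and -0.60 for Fam25c, with adjusted p of 0.17, 0.2 and 0.229. With all 30 arrays in the fit the adjusted p was 0.0621 for Rhbg, 0.479 for Mmd2 and 0.0988 for Fam25c. With the mean of all probe sets Mmd2 changed by -0.59 (adjusted p = 0.0568).

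Prdx4, Sec14l4, Shoc2 and Kitl rose by less than 0.6 each. Prdx4, the peroxiredoxin of the endoplasmic reticulum, was 10.55, 10.56, 10.49 and 10.72 in vehicle with HCC and between 10.76 and 11.09 under sulindac, a rise of 0.37 (SE 0.059, adjusted p = 0.0209). Sec14l4 encodes a lipid-binding protein and rose by 0.41 (SE 0.067, adjusted p = 0.0276), from between 9.09 and 9.34 to between 9.46 and 9.84. Shoc2, a scaffold of the RAS and MAPK cascade, rose by 0.57 (SE 0.095, adjusted p = 0.0298), from between 6.83 and 7.28 to between 7.40 and 7.89. Kitl encodes stem cell factor, the ligand of the KIT receptor, and rose by 0.33 (SE 0.054, adjusted p = 0.0305), with 2 of its 4 probe sets higher. For Kitl the gap between the groups was narrow, with 5.19 as the highest vehicle value and 5.28 as the lowest sulindac value. With the mean of all 4 probe sets the change of Kitl was 0.08 (adjusted p = 0.468). Its call was also lost with a trended and robust prior (adjusted p = 0.2), with array weights (0.0614), with quantile normalization repeated (0.098) and when genes below the median gene mean were left out (0.0567). The healthy mice had higher Kitl than either group, between 5.65 and 6.38. With all 30 arrays in the fit the adjusted p was 0.0553 for Prdx4, 0.559 for Sec14l4 and 0.44 for Kitl. Without both Veh_high_1831 and Veh_high_2088 it was 0.0974 for Prdx4, 0.0956 for Sec14l4, 0.103 for Shoc2 and 0.305 for Kitl. Prdx4 also did not pass with quantile normalization repeated (0.0613). Leaving out 1 mouse ended the call of Prdx4 in 3 of 14 runs (Veh_high_798, Veh_high_1770 and Veh_high_1831, adjusted p at most 0.115) and that of Sec14l4 in 7 (the 4 vehicle mice, Sulin_16, Sulin_18 and Sulin_21, at most 0.118). It ended that of Shoc2 in 8 (Veh_high_798, Veh_high_1770, Veh_high_2088, Sulin_16, Sulin_18, Sulin_17, Sulin_21 and Sulin_26, at most 0.183) and that of Kitl in 9 (Veh_high_1770, Veh_high_1831, Veh_high_2088, Sulin_16, Sulin_20, Sulin_23, Sulin_29, Sulin_15 and Sulin_17, at most 0.139).

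The genes next in order of p did not pass. Ash2l, a subunit of histone methyltransferase complexes, had a change of 0.37 (adjusted p = 0.0532), Map3k3, a kinase of the MAPK cascades, one of 0.24 (0.0643) and Ly96, the partner of Toll-like receptor 4, one of -0.34 (0.0582). Cyp17a1, a steroid hydroxylase, was 9.38, 10.40, 9.02 and 9.05 in vehicle with HCC and between 5.86 and 9.38 under sulindac, with a median of 6.82. This change of -2.37 had an SE of 0.544 and an adjusted p of 0.204, and it was -2.62 (adjusted p = 0.0363) without Sulin_17. Cyp17a1 was 7.55 or more in Sulin_15, Sulin_17, Sulin_21 and Sulin_26, and 7.27 or less in the other sulindac mice. In vehicle mice without HCC it ran from 4.56 to 9.52. Robo1, a guidance receptor, was 6.80, 6.77, 6.53 and 6.67 in vehicle with HCC and between 4.86 and 6.49 under sulindac, a 2.01-fold lower mean with an adjusted p of 0.188, or 0.0216 without Sulin_17 and Sulin_15. Wfdc2, a secreted protease-inhibitor-like protein, also had groups that did not overlap, with a change of -0.94 (adjusted p = 0.204).

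The cyclooxygenase targets of sulindac were weakly measured or not analysed. Ptgs2, which encodes the inducible cyclooxygenase, lay near the lower end of the array's range, at 4.21 to 4.34 in vehicle with HCC and 4.26 to 4.44 under sulindac, with a change of 0.08 (95% interval -0.01 to 0.17, adjusted p = 0.663). Ptgs1, the constitutive form, was not analysed here because no probe set carries its symbol alone. Of 29 measured genes of prostanoid synthesis and receptors 0 passed, and Ptgdr, a receptor of prostaglandin D2, was the only one at an unadjusted p under 0.05, with a change of 0.15 (adjusted p = 0.353). Alox5ap, the activator of 5-lipoxygenase, had a change of 0.39 (95% interval -0.02 to 0.79). Of 26 enzymes and transporters known to reduce, oxidise or carry sulindac and its metabolites 0 passed. At an unadjusted p under 0.05, 4 were higher (5.50% of all genes) and 2 lower (2.71%). Changes over that list ran from -0.22 to 1.89, with a median of 0.03. In that list Msrb1 and Msrb2, which reduce methionine sulfoxide, had changes of 0.19 and 0.20, Aox1, an aldehyde oxidase, one of -0.22 and Slc10a1, the sodium-dependent bile acid carrier, one of 0.20, all with adjusted p of at least 0.461.

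Markers of resident liver macrophages mostly had a higher mean under sulindac, and none passed the test. Of the 20 genes of the resident Kupffer cell list 19 had a higher mean (55.6% of all genes), 9 reached an unadjusted p under 0.05 (5.50% of all genes) and 0 passed, with a median change of 0.36. Marco, a scavenger receptor, was 4.94, 4.79, 4.87 and 5.45 in vehicle with HCC and spread from 5.33 to 9.07 under sulindac, with a median of 7.04. Its change was 1.85 (SE 0.617, adjusted p = 0.415), and 8 of 10 sulindac mice lay above all vehicle mice. Vsig4, a complement receptor, was 10.00, 7.91, 7.60 and 10.17 in vehicle with HCC and between 9.40 and 10.47 under sulindac. Veh_high_1770 and Veh_high_1831 were low and the other pair lay inside the sulindac range, and the same 2 mice had the lowest mean over the list, 7.23 and 7.16 against 7.83 and 8.04. Clec4f, a lectin that defines Kupffer cells, had a change of 0.72 (adjusted p = 0.554), Cd163, the haemoglobin scavenger receptor, one of 0.77 (0.456) and Fcna one of 0.76 (0.586). The count at an unadjusted p under 0.05 was 5 without Veh_high_1770, 5 without Veh_high_1831 and 14 without Veh_high_2088. In bulk tissue, fewer cells of a type and less RNA per cell cannot be told apart.

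Endothelial genes also mostly had a higher mean, in 27 of 35 (55.6% of all genes). Of the 35 genes of the endothelial and sinusoidal list 0 passed, 14 were higher (5.50% of all genes) and 1 lower (2.71%) at an unadjusted p under 0.05, and the median was 0.19. With all 30 arrays in the fit, 9 were higher and 0 lower. Clec4g, a lectin of sinusoidal endothelium, was 10.21, 9.98, 9.32 and 10.07 in vehicle with HCC and between 10.09 and 10.45 under sulindac, with a change of 0.41 (adjusted p = 0.353). Oit3, a further sinusoidal gene, was 8.14, 8.08, 7.28 and 8.22 in vehicle with HCC and between 8.07 and 8.58 under sulindac. Cdh5, the cadherin of endothelial junctions, had a change of 0.42 (adjusted p = 0.353) and Kdr, the main VEGF receptor, one of 0.30 (0.483). Vwf was the 1 lower gene, with a change of -0.20 (0.487). Veh_high_1831 had the lowest value of the 4 vehicle mice for Clec4g, Oit3, Cdh5 and Kdr, and without it 3 endothelial genes were higher at an unadjusted p under 0.05, with a median of 0.11.

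Lymphocyte and interferon genes had lower means or changes near 0, and none passed. Of 38 T and NK cell genes 0 passed and the median was -0.01. Ccl5, a chemokine of T and NK cells, was 6.41, 7.0, 6.68 and 8.56 in vehicle with HCC and between 5.47 and 7.11 under sulindac, with a change of -0.96 (95% interval -1.71 to -0.22, adjusted p = 0.466). Lag3, an inhibitory receptor, had a change of -0.16 (adjusted p = 0.305). Of 34 type I interferon response genes 27 had a lower mean (44.4% of all genes) and 0 passed. At an unadjusted p under 0.05, 4 were lower (2.71% of all genes), namely Oasl2, Usp18, Irf7 and Ifi27l2a, with changes from -0.36 to -0.21. That count was 1 without Veh_high_798, 9 without Veh_high_1831, 7 without Veh_high_2088 and 0 with all 30 arrays in the fit. In the defining markers, Cd3d, Cd3g, Gzma, Ms4a1, Cd79a and Cd79b were below the median gene mean of 4.90, so changes of T and B cell RNA are weakly measured here.

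Genes of cholesterol synthesis mostly had a lower mean under sulindac, and none passed. Of 27 genes of cholesterol synthesis and uptake 21 were measured, 18 had a lower mean (44.4% of all genes) and 5 reached an unadjusted p under 0.05 (2.71% of all genes), with a median of -0.39. That count was 2 without Veh_high_1770, 3 without Veh_high_1831, 3 with all 30 arrays in the fit and 11 without Sulin_17 and Sulin_15. Sqle, which encodes squalene epoxidase, was 8.43, 9.79, 9.40 and 8.92 in vehicle with HCC and between 5.89 and 9.12 under sulindac, a change of -1.48 (95% interval -2.57 to -0.38, adjusted p = 0.45). The spread among sulindac mice (SD 1.06) exceeded that among vehicle mice (SD 0.59). Mvd, the mevalonate decarboxylase, had a change of -1.12 (adjusted p = 0.573), Msmo1, a sterol methyl oxidase, one of -0.45 (0.404) and Fdft1, squalene synthase, one of -0.39 (0.466). Hmgcs1, which makes the substrate of HMG-CoA reductase, was 5.81, 6.26, 4.99 and 4.57 in vehicle with HCC and between 4.39 and 5.28 under sulindac, a change of -0.71 (adjusted p = 0.464). The median was -0.30 without Veh_high_1770 and -0.23 without Veh_high_1831.

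The promoter of Hmgcs1 is shown because, of the 19 promoters of this list found, it alone held TCACNCCAC on either strand, the letters of a sterol regulatory element, against 280 of 27025 promoters (1.04%). It is the RefSeq window chr13:119690101-119690350 on the plus strand of GRCm38.p6, with the match in capitals, starting 137 bases before the gene start.
Hmgcs1: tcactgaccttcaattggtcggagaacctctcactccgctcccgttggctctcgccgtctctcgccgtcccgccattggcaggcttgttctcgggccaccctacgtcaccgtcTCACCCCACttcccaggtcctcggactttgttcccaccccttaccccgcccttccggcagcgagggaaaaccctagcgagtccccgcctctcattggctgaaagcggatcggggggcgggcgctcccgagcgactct

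Lipid storage and bile acid genes had single members that stood out. Pparg, the nuclear receptor that drives lipid storage, was 7.21, 7.59, 8.31 and 8.14 in vehicle with HCC and between 6.36 and 7.53 under sulindac, with 9 of 10 sulindac mice below all vehicle mice. Its change of -0.87 had an adjusted p of 0.204. Plin4, a lipid droplet coat protein, had a change of -0.76 (adjusted p = 0.472) and Cidea, which enlarges droplets, one of -1.45 (95% interval -3.02 to 0.12, adjusted p = 0.648). Of 20 genes of de novo lipogenesis 16 had a lower mean (44.4% of all genes), and 0 reached an unadjusted p under 0.05. Cyp7a1, the rate-limiting enzyme of bile acid synthesis, had a change of -1.08 (adjusted p = 0.583) and Cyp8b1, which makes cholic acid, one of -0.81 (0.64). The transporter genes Abcg8 and Slco1a4 had changes of 0.53 and 0.67 (adjusted p of 0.53 and 0.543).

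**Figure D4:**
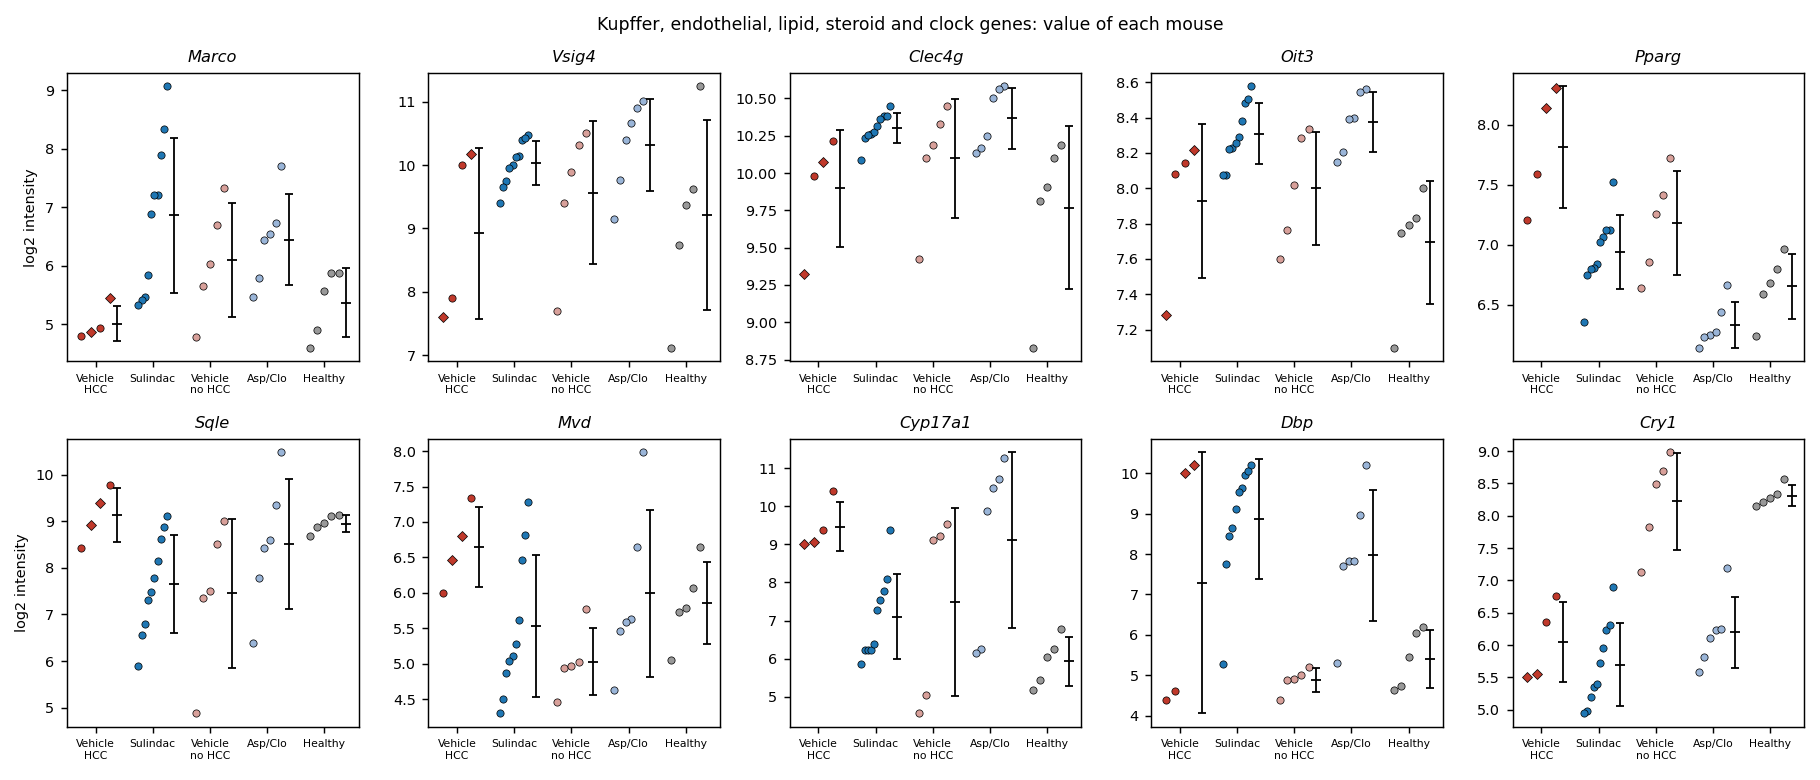
Each panel shows log2 intensity of 1 Kupffer cell, endothelial, lipid, steroid or clock gene that did not pass the test, with 1 point per mouse in 5 groups and a bar for the mean ± SD, and diamonds for Veh_high_1831 and Veh_high_2088. Marco spreads from 5.33 to 9.07 under sulindac, and Dbp forms a high and a low pair in vehicle with HCC.

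Fibrosis and tumour genes gave no call. Of 43 collagen and matrix genes 0 reached an unadjusted p under 0.05, and their median was 0.00. Of 24 stellate cell and myofibroblast genes 0 passed, with a median of -0.02. Afp, the fetal liver protein used as a tumour marker, was at 4.75 to 4.94 in vehicle with HCC and 4.66 to 4.95 under sulindac, with a change of -0.02 (95% interval -0.14 to 0.10). The group means of Afp and of Igf2, another tumour marker, were below the median gene mean of 4.90. The tumour markers Gpc3 and H19 were not analysed, so tumour marker RNA is weakly measured here. Akr1b8, an aldo-keto reductase raised in some liver tumours, was 5.44, 5.11, 5.32 and 5.36 in vehicle with HCC and between 5.61 and 6.16 under sulindac. These groups did not overlap, and the change of 0.52 had an adjusted p of 0.128. Ly6d, which encodes a surface protein, and Tff3, a trefoil factor gene, had changes of -1.63 (adjusted p = 0.511) and -0.53 (0.571). Of 46 cell cycle genes 0 passed, and Rrm1, a subunit of ribonucleotide reductase, had a change of 0.50 (adjusted p = 0.343).

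Of the NRF2 targets, which defend against oxidants, 22 of 30 had a lower mean (44.4% of all genes) and 0 passed the test. At an unadjusted p under 0.05, 3 were lower (2.71% of all genes). Without Veh_high_798 a higher mean was seen in 14 of the 30, and with all 30 arrays in the fit 1 was lower at that p. Srxn1, sulfiredoxin, was 9.03, 8.25, 8.92 and 8.52 in vehicle with HCC and between 7.22 and 8.72 under sulindac, a change of -0.80 (adjusted p = 0.431). Gpx4, the peroxidase of lipid hydroperoxides, had a change of -0.26 (adjusted p = 0.353), with 9 of 10 sulindac mice below all vehicle mice. Coagulation genes had small changes, with a higher mean in 30 of 31 (55.6% of all genes), 6 at an unadjusted p under 0.05 (5.50%), 0 past the test and a median of 0.06. That count was 3 without Veh_high_1770 and 3 without Veh_high_2088, and without Veh_high_2088 the mean was higher in 25 of 31. F13b, a subunit of factor XIII, had a change of 0.27 (adjusted p = 0.262). Of 38 RNA processing genes 31 had a higher mean (55.6% of all genes) and 6 were higher at an unadjusted p under 0.05 (5.50% of all genes), among them Rest, a transcriptional repressor, with 0.33 (adjusted p = 0.211) and Hnrnpc with 0.18 (0.358). The mean over this list was lowest in Veh_high_2088, at 8.203. It was 8.42, 8.345 and 8.419 in the other vehicle mice with HCC, and between 8.348 and 8.509 under sulindac.

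Of 24 measured clock genes 0 passed. Cry1, a repressor of the clock, was 6.76, 6.35, 5.51 and 5.55 in vehicle with HCC and between 4.94 and 6.90 under sulindac, a change of -0.34 (95% interval -1.07 to 0.39, adjusted p = 0.861). Dbp was between 5.29 and 10.20 under sulindac, and 9 of the 10 mice had 7.76 or more. Noct, a rhythmic phosphatase gene, had a change of -0.73 (adjusted p = 0.305), and Rora, a clock activator, one of 0.23 (0.392). The collection time of each mouse is not in the labels, and its part in the results was not tested.

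Across the 55 gene lists, no list had more than 4 members past the test. The highest medians were those of the resident Kupffer cell list at 0.36, male-biased liver genes at 0.29 and skeletal muscle at 0.28. The skeletal muscle median was -0.04 without Sulin_17. The lowest were cholesterol synthesis at -0.39, MHC class II at -0.17 and de novo lipogenesis at -0.10.

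**Figure D5:**
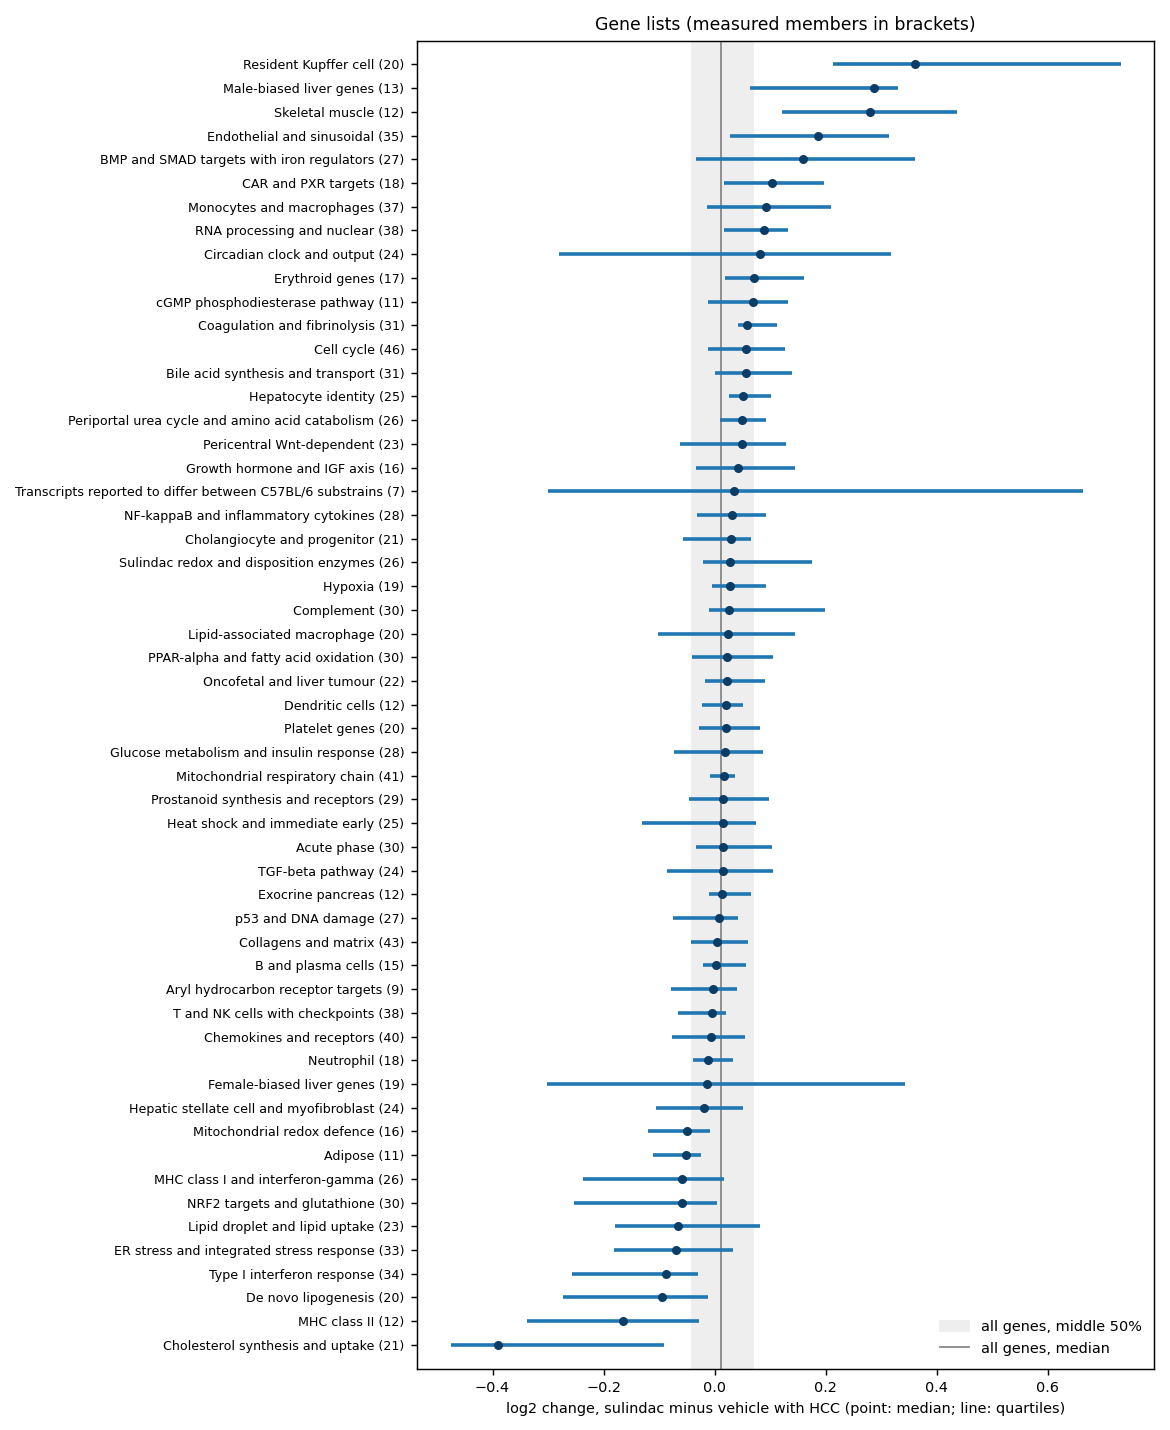
For each of 55 gene lists the point is the median log2 change of sulindac minus vehicle with HCC over its measured members, whose number is in brackets, and the line joins the quartiles. The grey band holds the middle 50% of all 17097 genes, and resident Kupffer cell genes at 0.36 and cholesterol genes at -0.39 mark the ends.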

How the data were processed

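Non-tumour liver RNA of each mouse went on 1 Affymetrix HT MG-430 PM array. The deposited values are linear intensity per probe set, which the authors made with RMA and quantile normalization in ExpressionFileCreator, per the series design text. Background signal compresses small changes near the lower end. Groups follow the labels, which hold 9 vehicle mice where the design text counts 4. Here log2 was taken, and for each of 17097 genes the probe set of highest mean over the 30 arrays was kept among the 28898 with 1 symbol (551 have several and 15588 none). No gene was removed for low intensity.

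The 10 sulindac and 4 vehicle with HCC arrays were fitted alone with limma 3.58.1 in R 4.3.3 (12 residual degrees of freedom, 2.76 prior), with Benjamini-Hochberg adjustment over all genes and a threshold of 0.05. The fit was tested on simulated data with independent genes and the same spread in both groups. That test does not cover genes of unequal spread, such as Hamp. The number of arrays limits the precision. A second fit used all 30 arrays for the other groups. It had no term for sex, so its spread includes differences within the aspirin with clopidogrel group, where Mmd2 ran from 5.37 to 8.02. Named genes are the 15 of smallest p per direction whose brighter group reached the median gene mean, up to 4 members of each list, all members of the prostanoid, clock and substrain lists and 10 fixed genes, of which part is shown. Members, lists and rules were chosen with earlier results of these data known. Promoters are from RefSeq, build GRCm38.p6. Alternatives covered the fit, offset, centring, normalization, filter, probe sets, weights and single mice.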

Additional observations from a re-analysis of the deposited data

Results flagged for a closer look

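Within the groups of 4 and 10 mice, 1 mouse stood apart from the rest by Dixon's test in 10 of 196 pairs of gene and group, and chance alone marks about 1 in 20. Veh_high_1831 accounted for 5 of the 10. Its Entpd4 was 7.27, above 6.94 as the next of the vehicle mice with HCC and 6.88 as their lowest. Its Gpr182, a sinusoidal receptor gene, was 6.40 (next 7.04, highest 7.16), its Oit3 7.28 (next 8.08, highest 8.22), its F8, the factor VIII gene, 6.30 (next 7.0, highest 7.06) and its Lyz2, the macrophage lysozyme gene, 9.86 (next 10.38, highest 10.46). Veh_high_798 had a Ptgs2 of 4.21 (next 4.32, highest 4.34). Sulin_16 had an Ide of 9.27 (next 9.51, highest 9.74), a Stard8 of 5.60 (next 5.39, lowest 5.19) and a Cops2 of 7.36 (next 7.03, lowest 6.75). Sulin_15 had a Dbp of 5.29 (next 7.76, highest 10.20).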

How the results depend on the processing

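No paired analysis was possible because the groups share no animal numbers. Among the alternatives, the count of higher genes moved from 8 to 5 without Veh_high_1831 and Veh_high_2088, and to 5 without Sulin_17 and Sulin_15, an alternative chosen after seeing the data. The count of lower genes moved from 7 to 2 with all 30 arrays in the fit and to 3 without Veh_high_1831 and Veh_high_2088. The count at an unadjusted p under 0.05 moved from 1404 to 926 when only genes at or above the median gene mean were tested, which are fewer genes. Leaving out 1 mouse at a time gave between 3 (without Veh_high_1770) and 12 higher genes, between 3 (without Veh_high_1831) and 8 lower genes, and between 1091 and 1527 genes at an unadjusted p under 0.05. The higher count was also 5 without Veh_high_2088, Sulin_16 or Sulin_21, and the lower count 4 without Veh_high_2088. Over the alternatives run none of the 98 genes checked changed direction: 2247 values kept their side of the threshold, 75 lost the call and 26 gained one. Other named genes, among them Afp with its change near 0, were not part of this check. Of the list medians 1307 moved by less than the spread and 13 by more. Other causes of these moves were not tested. With 4 vehicle mice, small changes of spread genes are weakly measured.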
